A study of Mus musculus with 3 samples.

Results

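The oxygen-sensing genes of the hypoxia-inducible factor (HIF) pathway were examined in endothelial cells (ECs) of the adult mouse lung. They are those of the HIF α subunits, *Hif1a*, *Epas1* and *Hif3a*, the β subunits *Arnt* and *Arnt2*, the prolyl hydroxylases *Egln1*, *Egln2* and *Egln3*, the asparaginyl hydroxylase *Hif1an*, and *Vhl*. They were chosen by gene symbol as members of the pathway, and all 10 were found among the 24346 symbols of the deposited table. The series holds 3 bulk RNA-seq libraries of 1 condition, named S38, S44 and S52. Each came from lungs of wild-type male C57BL/6J mice, 6 to 8 weeks old by the study's methods, with no treatment beyond an antibody to VE-cadherin that was injected to mark cells lining perfused vessels. Cells positive for VE-cadherin and CD31 and negative for CD45 and podoplanin were sorted. Nothing in the sources states that the libraries came from separate mice, so the spread between them may be technical. With 1 condition, levels and ratios could be described, but no response to oxygen or treatment could be measured.

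Oxygen sensing by this pathway acts mainly on protein. When oxygen is plentiful, the EGLN enzymes (also called PHD1 to PHD3) hydroxylate prolines of HIFα, the VHL protein binds the hydroxylated form and its ubiquitin ligase marks it for destruction, while HIF1AN (also called FIH) hydroxylates an asparagine that HIFα needs to bind its coactivators. When oxygen is short, HIFα escapes, pairs with ARNT and switches on genes for new vessels, glycolysis and survival. The transcript levels given here therefore describe how much mRNA of each component the cells held, not how active the pathway was. The product of *Epas1*, HIF2α, is known for its high abundance in vascular endothelium.

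The sites of *Hif1a* and *Hif3a* that the enzymes act on are shown at the DNA level (*Epas1* is not shown), because they are where the *Egln* genes, *Hif1an* and *Vhl* meet the α subunits. Each run is the coding strand of GRCm38 inside a single coding exon of GENCODE M21, with the codon of the hydroxylated residue, or in *Hif3a* of the matching proline, in capitals.
Hif1a codon 402, proline, chr12:73939686-73939715, + strand: gctctcactctgctggctCCAgctgccggc
Hif1a codon 577, proline, chr12:73941973-73942002, + strand: gatttggagatgctggctCCCtatatccca
Hif3a codon 489, proline, chr7:17041196-17041225, - strand: gacttggagatgctggccCCCtacatctcc
Hif1a codon 813, asparagine, chr12:73945611-73945640, + strand: agttacgattgtgaagttAATgctcccata
The second proline site of *Hif1a* and the site of *Hif3a* had 25 of 30 bases in common, whereas the pair of *Hif1a* proline sites shared 15 of 30. Over whole transcripts, no run of 51 bases, the length of a read, was shared between any of the 10 genes. An exact match to one of them thus pointed to no other of the 10. Genes outside the 10 did share such runs, 338 of 5940 for *Hif1a* and 179 of 7870 for *Arnt2*.

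Values are FPKM, fragment numbers scaled to transcript length and library size, as the authors deposited them, and means are given ± SD over n = 3 libraries. FPKM corrects for length, so levels of different genes can be set side by side. Depth was estimated from the steps between low values at 34050000 to 38950000 fragments per library. The 8 endothelial markers (*Pecam1*, *Cdh5*, *Kdr*, *Tek*, *Tie1*, *Erg*, *Cldn5*, *Emcn*) had a median of 378, 393 and 379 FPKM in S38, S44 and S52, as their label implies. Single markers moved in different directions, though none of the 8 spanned over 2-fold. *Erg* was at 59.2, 43.1 and 84.8 FPKM in the same order of libraries, and *Cldn5* at 1486, 1732 and 1029. S52 stood apart in markers of other cells. The summed level of 4 platelet markers was 1692 FPKM in S38, 1345 in S44 and 37.96 in S52. That of 5 alveolar type 2 markers was 3778, 3164 and 755, and that of 4 airway markers 2767, 2303 and 401. The 3 erythroid markers summed to 337, 468 and 94.5, but were unlike each other. *Hbb-bs* was at 185, 308 and 0.00319 FPKM, whereas *Hba-a1* was at 147, 147 and 91.0 and *Alas2* at 4.37, 13.9 and 3.56. The sums differed less for 4 alveolar type 1 markers (273 to 373 FPKM) and 4 mural markers (54.0 to 103). They also differed less for 4 fibroblast markers (45.8 to 74.3) and 6 genes of the dissociation stress response (2209 to 2763). Single genes of these lists still spanned over 2-fold: 2 alveolar type 1, 3 mural, 1 fibroblast and 1 stress gene. In S38, S44 and S52, *Ager* was at 43.3, 33.4 and 66.0 FPKM, whereas *Aqp5* was at 10.5, 7.61 and 3.08. Leukocyte markers differed among themselves as well. *Cd68* was at 16.7 to 27.4 FPKM, while *S100a8* was at 13.6, 17.8 and 0.251, *Ptprc* at 4.30, 2.06 and 0.434, and *Cd3e* at 0.206, 0.261 and 0. The part of these cells in any value below was not tested, and in bulk samples fewer cells of a type and less RNA per cell cannot be told apart.

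Of the 10 genes, 7 were detected, that is, had a mean of at least 1 FPKM, where 48.3% of all 24346 genes were. *Epas1* stood far above the rest, at the 135th highest mean of the table. Below it lay *Egln2*, *Hif1a*, *Arnt*, *Egln1*, *Vhl* and *Hif1an*, in that order, at between 26.5 and 5.05 FPKM. *Egln3*, *Hif3a* and *Arnt2* were under the threshold. In 7 of the 9 steps down this order the upper gene was higher in every library and the ranges did not overlap. The exceptions were *Arnt* over *Egln1*, where the means differed by 1.86 FPKM against a larger SD of 2.48 and the order held in 2 of 3 libraries, and *Hif3a* over *Arnt2*, both near 0.

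**Figure D1:**
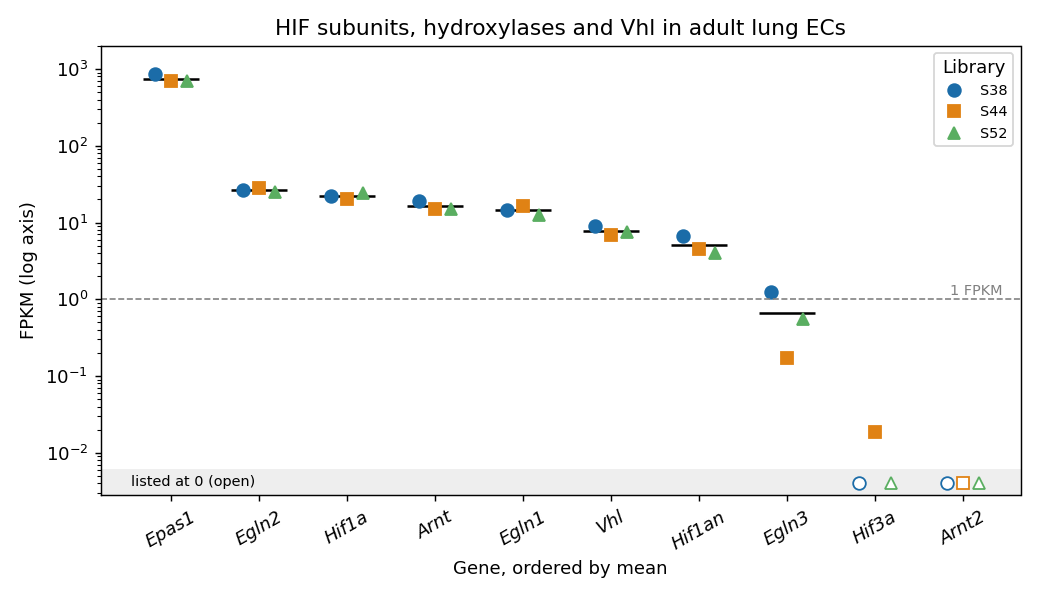
FPKM of the 10 genes (log axis) in libraries S38, S44 and S52, 1 point per library, a bar at the mean of genes read in all 3, and open points in the grey band for 0. *Epas1* at 695 to 858 FPKM lies above all others, while *Egln3*, *Hif3a* and *Arnt2* lie below the dashed line at 1 FPKM on average.

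**Figure D2:**
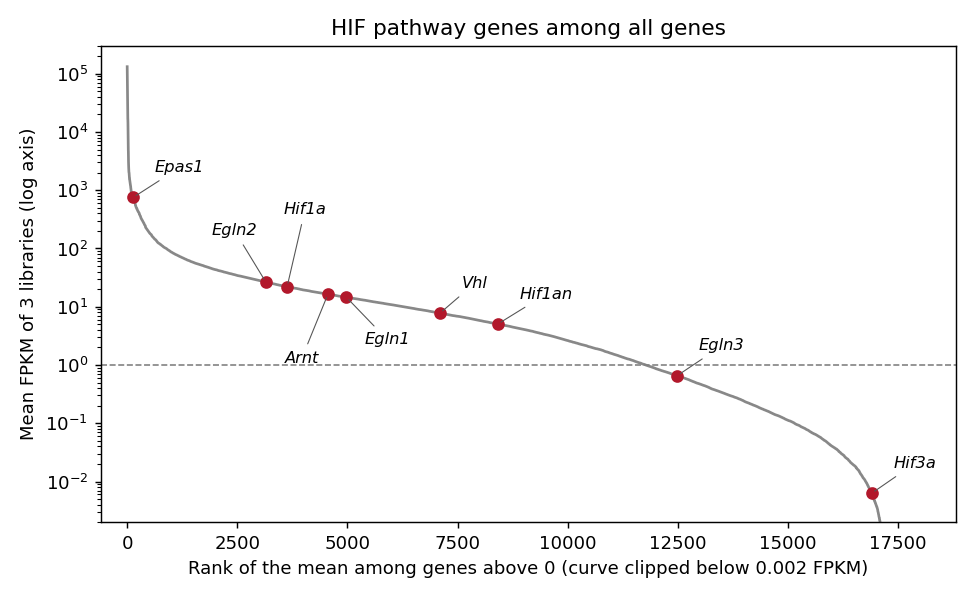
Mean FPKM of 3 libraries (log axis) of all genes above 0 against their rank, with the 10 genes marked except *Arnt2*, which was listed at 0. *Epas1* sits on the steep left end at rank 135, and 7 genes lie above the dashed line at 1 FPKM.

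Among the α subunits, *Epas1* supplied nearly all of the mRNA. *Epas1*, encoding HIF2α on chr17:86753700-86833410, was at 858 FPKM in S38, 695 in S44 and 703 in S52. Its mean of 752 ± 91.9 FPKM exceeded that of 99.4% of genes, and it was higher than the means of 5 of the 8 endothelial markers, with *Cldn5*, *Pecam1* and *Cdh5* above it. S38 was the high library and the other two lay close together. *Hif1a*, encoding HIF1α on chr12:73901375-73947530, was at 22.3, 20.0 and 24.2 FPKM in the same order of libraries, with a mean of 22.2 ± 2.07. It was highest in S52, the only detected gene of the 10 for which that was so. The lowest *Epas1* value lay far above the highest *Hif1a* value. Part of the *Hif1a* transcript, 330 exonic bases or 6.06%, overlaps the antisense gene *Gm15283*, and 148 bases overlap *Gm49321*. The libraries did not keep strand, and *Gm49321* lies on the same strand as *Hif1a*, so reads from these stretches cannot be assigned to one gene.

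The ratio of *Epas1* to *Hif1a* was 29.1 to 38.4-fold over the libraries, or 5.02 ± 0.20 on the scale of log2(FPKM + 1). *Epas1* was higher in 3 of 3 libraries, and the two-sided exact sign-flip permutation test gave p = 0.25, the smallest that 3 libraries allow. As a share of the summed FPKM of the α subunits, *Epas1* made up 97.5%, 97.2% and 96.7% in S38, S44 and S52, and *Hif1a* 2.54%, 2.80% and 3.32%. The share of *Hif1a* was thus small in each library and was highest in S52. *Hif3a*, whose product in many of its forms restrains the other α subunits, was at 0 in S38 and S52 and at 0.0189 FPKM in S44, an estimated 5 fragments with a 95% Poisson interval of 0.00668 to 0.0480 FPKM. At a count of 0 the same interval reaches up to 0.0156 FPKM in S38 and 0.0174 in S52. There, 3 fragments would have given 0.0127 and 0.0141 FPKM. *Hif3a* was thus close to or under the limit of detection in all libraries. These intervals and limits cover counting error only and rest on the estimated depth.

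Of the β subunits, only *Arnt* was read. *Arnt*, the common partner of the α subunits and of the aryl hydrocarbon receptor (chr3:95434388-95497240), was at 19.3 FPKM in S38, 14.9 in S44 and 15.1 in S52, a mean of 16.4 ± 2.48. As with *Epas1*, S38 was high and the other libraries were close to each other. *Arnt2*, a paralog best known from neurons (chr7:84246278-84410176), was listed at 0 in all 3 libraries, where 3 fragments would have given 0.0129 to 0.0147 FPKM. No fold between the paralogs is given for that reason.

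The α subunits together exceeded the β subunits by 45.6 to 48.2-fold in FPKM, and the log2 ratio varied by only 0.03 (SD, n = 3) around 5.48. This large excess was that of *Epas1*. *Hif1a* alone was 1.16 to 1.60 times *Arnt*, higher in 3 of 3 libraries, with a gap of 0.736 FPKM between the lowest *Hif1a* and the highest *Arnt* value.

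**Figure D3:**
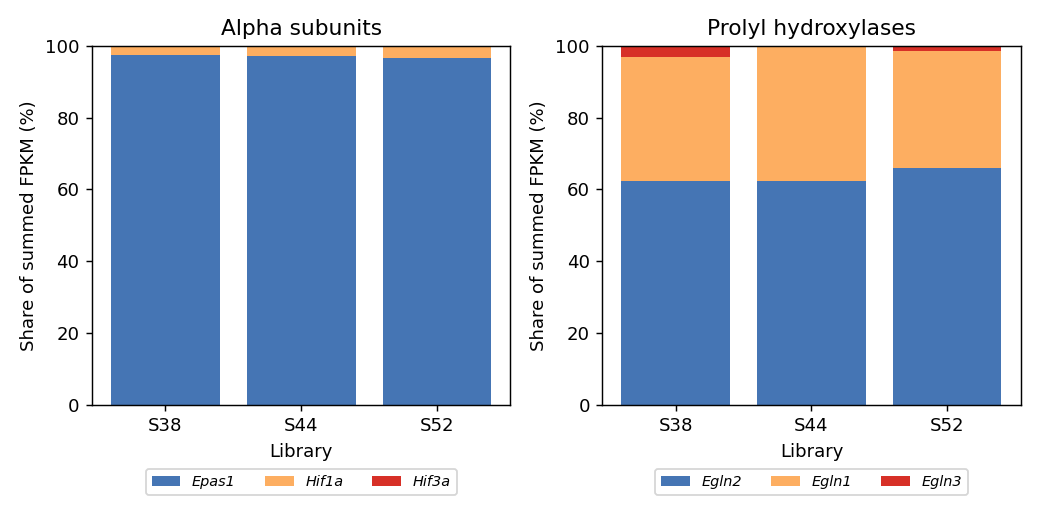
Share of each gene, in percent, in the summed FPKM of the α subunits and of the prolyl hydroxylases, 1 stacked bar per library. *Epas1* fills 96.7% to 97.5% of the α bars, with *Hif3a* too small to be seen, and *Egln2* fills 62.3% to 66.0% of the hydroxylase bars.

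The prolyl hydroxylases were read mainly from *Egln2*, then *Egln1*, and hardly from *Egln3*. *Egln2*, encoding PHD1 (chr7:27158658-27166802), was at 26.2 FPKM in S38, 27.9 in S44 and 25.3 in S52, a mean of 26.5 ± 1.30. It was the steadiest of the detected genes, with 1.10-fold between its highest and lowest library. *Egln1*, encoding PHD2, the enzyme held to be the main brake on HIFα at normal oxygen (chr8:124908587-124949324), was at 14.6, 16.6 and 12.5 FPKM, a mean of 14.6 ± 2.08. *Egln1* was highest in S44 and lowest in S52, and its highest value stayed below the lowest *Egln2* value. The *Egln1* to *Egln2* ratio was 0.493 to 0.597, or -0.83 ± 0.13 on the log2(FPKM + 1) scale, lower in 3 of 3 libraries (exact sign-flip permutation, two-sided p = 0.25).

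*Egln3*, encoding PHD3, a hydroxylase whose own gene is a well-known HIF target (chr12:54178981-54203860), was at 1.25 FPKM in S38, 0.173 in S44 and 0.548 in S52, a mean of 0.658 ± 0.549. It was the most uneven of the genes read in every library, with 7.26-fold between S38 and S44. The estimated fragments were 119, 17 and 47, and the 95% Poisson intervals did not overlap: the lower bound was 1.04 FPKM in S38, S52 lay within 0.405 to 0.734 and the upper bound was 0.279 in S44. The differences between libraries were thus beyond counting error at the estimated depth. S38, with most *Egln3*, also had the highest sums of alveolar type 2, airway and platelet markers, while S44, with the least, was second in all 3 of these. The summed mural markers did follow the order of *Egln3*, with 103 FPKM for S38, 98.8 for S52 and 54.0 for S44. Each of these 4 genes was lowest in S44, but 3 were highest in S52 and 1 in S38. The part of any of these cells in the *Egln3* values was not tested. *Egln2* exceeded *Egln3* by 20.9 to 161-fold, or by 4.10 ± 0.51 in log2(FPKM + 1), in 3 of 3 libraries (exact sign-flip permutation, two-sided p = 0.25). In shares, *Egln2* took 62.3%, 62.4% and 66.0% of the prolyl hydroxylase FPKM, *Egln1* 34.7%, 37.3% and 32.6%, and *Egln3* 2.98%, 0.387% and 1.43%.

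*Hif1an*, encoding the asparaginyl hydroxylase FIH (chr19:44562850-44576274), was at 6.62 FPKM in S38, 4.56 in S44 and 3.98 in S52, a mean of 5.05 ± 1.39. Its highest library was 1.66-fold above its lowest, the widest span of the 7 detected genes. *Egln1* exceeded *Hif1an* by 2.205 to 3.65-fold. *Vhl*, the substrate receptor of the ligase (chr6:113623959-113631633), was at 8.89, 6.91 and 7.44 FPKM, a mean of 7.75 ± 1.02, with S38 again the highest. *Vhl* was above *Hif1an* in all 3 libraries, with a gap of 0.296 FPKM between the ranges.

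None of the 7 detected genes differed by more than 2-fold between its highest and lowest library, a span that 20.1% of the 11770 detected genes exceeded. The median span was 1.29-fold for the 7 genes and 1.396-fold for all detected genes. Of the 7, 4 were highest in S38 (*Epas1*, *Arnt*, *Vhl* and *Hif1an*), 2 in S44 (*Egln1* and *Egln2*) and 1 in S52 (*Hif1a*). Of all 11770 detected genes, 4372 were highest in S38, 3406 in S44 and 3992 in S52. These orders hold for the values as deposited, and rescaling the libraries can change them. Against the mean of the other libraries, S52 differed by a median of -0.13 in log2(FPKM + 1) for the 7 detected genes, ranging from -0.39 for *Hif1an* to 0.18 for *Hif1a*. The same median was -0.07 over all 11770 detected genes. Rises and falls offset each other in such a median, so it does not give the size of the differences. The median of S52 against the others was 0.02 for the endothelial, 0.07 for the alveolar type 1 and -0.14 for the fibroblast markers. For the mural markers it was 0.70. Single endothelial markers ranged from -0.64 for *Kdr* to 0.74 for *Erg*. For the alveolar type 2 markers the median was -2.08, for the airway markers -1.99 and for the platelet markers -4.84. For the 4 detected leukocyte markers it was -1.04. Within the alveolar type 1 list, *Ager* stood at 0.78 and *Aqp5* at -1.29. Within the fibroblast list, *Pdgfra* stood at 0.22 and *Dcn* at -1.01.

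**Figure D4:**
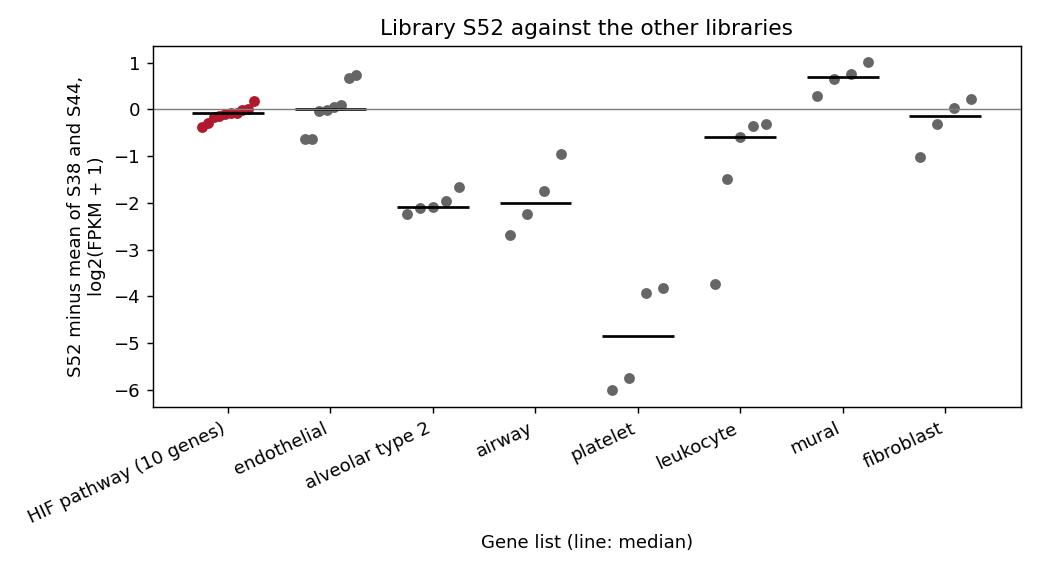
S52 minus the mean of S38 and S44, in log2(FPKM + 1), for the 10 genes and 7 marker lists, with 1 point per gene and a bar at the median. The 10 genes lie around 0 (median -0.08). The endothelial markers have a median of 0.02 but range from -0.64 for *Kdr* to 0.74 for *Erg*. The median of the platelet markers is -4.84.

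Transcripts of the rest of the VHL ligase and of other listed regulators of HIFα were read in every library. All 5 other components of the VHL ligase were detected. Its elongin B gene *Elob* was at 158 to 192 FPKM and *Nedd8*, which activates the cullin, at 157 to 166. The RING subunit *Rbx1* at 46.5 to 56.4 FPKM and the scaffold *Cul2* at 10.3 to 11.2 FPKM were the lowest. *Vhl* thus had the lowest mean of the ligase genes, with no overlap between its range and that of *Cul2*. The 11 genes listed as regulators of the hydroxylases, or of HIFα stability or synthesis, were detected as well. They were led by the chaperone gene *Hsp90ab1* with 754, 625 and 1210 FPKM and by *Rack1* with 358, 392 and 531. The lowest were the ubiquitin ligase gene *Siah1b*, at 1.37 to 2.06 FPKM, and the deubiquitinase gene *Usp20*, at 1.95 to 3.85. *Hsp90aa1*, a heat-inducible chaperone, was at 244, 194 and 511 FPKM and was the only one of them to span over 2-fold, with S52 high.

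All 6 coactivator and competitor genes were detected. *Cited2*, whose product competes with HIFα for p300, was at 15.2 to 23.0 FPKM and *Ep300*, encoding p300, at 9.94 to 10.3. *Crebbp*, the p300 paralog that also depends on the HIF1AN site, was at 4.93 to 6.16 FPKM. *Cited4* was lowest, with 1.91 FPKM in S38, 1.21 in S44 and 0.0801 in S52, the order also seen for the summed alveolar type 2 and platelet markers. Of 11 other genes of the bHLH-PAS family, to which the HIF subunits belong, 3 were detected. *Ahr*, the aryl hydrocarbon receptor and another partner of ARNT, was at 30.5 to 40.9 FPKM, above *Arnt* in every library, and the clock gene *Arntl* was at 10.6 to 13.0 FPKM. *Clock*, named because it completes the count, was at 10.4 to 12.3. *Sim2* was listed at 0 throughout and *Sim1* reached at most 0.00408 FPKM. Outside the EGLN family, the 3 listed oxygen-dependent dioxygenase genes were all detected, *Kdm6a* at 11.1 to 12.7 FPKM, *Kdm5a* at 7.499 to 9.56 and *Ado* at 1.77 to 3.17.

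In all, 28 of these 36 partners were detected, and 2 of the 28 spanned over 2-fold between libraries. Among all genes 48.3% were detected and 20.1% of those spanned over 2-fold, and genes chosen for a known role are not a random draw.

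Genes known as HIF targets were read widely, in sorted cells and without a low-oxygen group to compare. Of 43 listed targets, 39 were detected, or 90.7% against 48.3% of all genes, and the median of these 39 was 31.9 FPKM against 11.2 for all 11770 detected genes. The targets were chosen for a known role and are not a random draw. Among 12 vascular targets, 11 were detected. *Flt1*, a VEGF receptor, was at 140 to 152 FPKM and its ligand gene *Vegfa* at 129 to 138, both steady between libraries. *Edn1*, encoding the vasoconstrictor endothelin, was at 75.6 FPKM in S38, 42.4 in S44 and 96.7 in S52, over 2-fold apart. *Nos2* was at 3.46 to 4.50 FPKM, and *Epo*, the classical HIF2α target of kidney and liver, was listed at 0 in all libraries.

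Of 13 targets in glucose uptake and glycolysis, 12 were detected, led by *Aldoa* at 323 to 335 FPKM and *Gapdh* at 218 to 272. The exception was *Hk2*, the inducible hexokinase, at 0.582 to 0.993 FPKM. The lactate exporter gene *Slc16a3* was at 2.69, 1.67 and 1.09 FPKM, and *Pfkfb4* was at 3.70, 3.98 and 0.871. These were the glycolytic genes over 2-fold apart, and both were lowest in S52, the library low in platelet and alveolar type 2 markers. The carbonic anhydrases *Car9* and *Car12*, strongly hypoxia-induced in tumours, were at 0.161, 0.0142 and 0 FPKM and at 0.209, 0.0725 and 0 FPKM, neither detected.

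All 16 targets in cell survival, matrix and feedback were detected. *Hilpda*, a lipid droplet gene, was at 293 FPKM in S38, 362 in S44 and 206 in S52, and the mitophagy gene *Bnip3l* was at 84.7, 80.5 and 67.8. *Lox* at 2.93 to 5.24 FPKM and *Loxl2* at 3.92 to 4.53, both collagen cross-linking enzymes, were the lowest. Over 2-fold apart were *Ndrg1* at 65.0, 64.9 and 29.9 FPKM, *Mxi1* at 14.8, 11.1 and 6.53, and *Tfrc*, the transferrin receptor, at 6.79, 8.99 and 20.0. *Ndrg1* and *Mxi1* were lowest in S52 and *Tfrc* was highest there. Over all 39 detected targets, 6 (15.4%) were over 2-fold apart in the 3 libraries, against 20.1% of all detected genes. With S52 left out, 0 of 39 were, against 5.06% of 11854 detected genes. With S38 left out, 4 targets were, and with S44 left out, 5. The spans over 2-fold among the targets thus all involved S52. Leaving out a library lowers such counts by construction, and for all genes only S52 was left out.

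**Figure D5:**
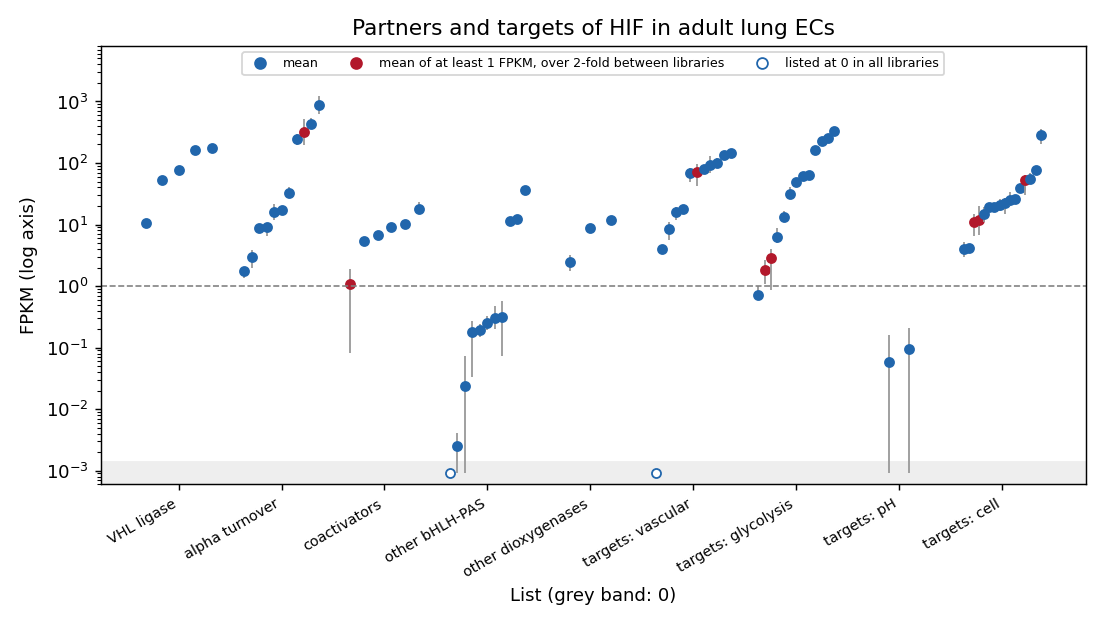
Mean FPKM of 3 libraries (log axis) for each gene of the partner and target lists, with a line from the lowest to the highest library. Red points are detected genes whose libraries span over 2-fold, open points in the grey band were 0 in all libraries, lines reaching the band had a library at 0, and the dashed line marks 1 FPKM.

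The listed gene nearest to each of the 10 in level over the 3 libraries was sought among 88 candidates, as the distance in log2(FPKM + 1). *Arnt* lay closest to the chemokine receptor gene *Cxcr4* (0.17), and *Egln1* to *Angpt2* (0.26). *Hif1a* and *Egln2* both had the histone demethylase gene *Kdm3a* as nearest (0.40 and 0.36), *Vhl* had *Kdm5a* (0.35), *Egln3* had *Hk2* (0.47) and *Hif1an* had *Loxl2* (0.50). *Epas1* had no close match, its nearest being *Hsp90ab1* at 0.82. *Hif3a* lay 0.02 from *Sim1*, and *Arnt2* was at 0 like *Epo* and *Sim2*. Over 3 libraries this measures mainly the level.

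Since HIF feeds back on its own brakes, the promoters of the genes were searched for ACGTG, the core of the hypoxia response element, on both strands, from 250 bases before to 50 after the start in RefSeq (GRCm38), where 9 of the 10 genes had an entry. The motif overlaps the E-box CACGTG, which other factors bind. It was found in 4 of the 9 genes (44.4%), namely *Egln1*, *Egln2*, *Egln3* and *Hif1a*, and in 21.8% of 27025 genes. A match outside an E-box is shown for each of these, on the strand of the gene, with the core in capitals and its position from the start site.
Egln1, chr8:124949306-124949334, - strand, position -68: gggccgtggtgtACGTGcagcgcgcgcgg
Egln2, chr7:27166834-27166862, - strand, position -48: agcctcctgtcaACGTGcggttcgcgcac
Egln3, chr12:54204087-54204115, - strand, position -229: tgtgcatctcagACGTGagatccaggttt
Hif1a, chr12:73907785-73907813, + strand, position -70: tggctgagagcaACGTGggctggggtggg
*Egln2* and *Hif1a* also held an E-box each. Of the targets with an entry, the motif was found in 9 of 10 cell survival, matrix and feedback genes, 9 of 13 glycolytic genes, 2 of 8 vascular genes and 1 of 2 carbonic anhydrases. Genes with the motif differed widely in level, as *Egln2* and *Egln3* did, and whether a factor bound was not measured.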

How the data were processed

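Bulk RNA-seq of 3 libraries of sorted adult lung ECs was analysed (poly-A selected, no strand, paired reads of 51 bases). For each gene symbol the authors deposited an FPKM value, on mm10 and without counts. The submitters' processing notes name bcl2fastq 2.17, FastQC 0.11.5, Trimmomatic 0.36, TopHat2 2.1.0 and Cufflinks 2.2.1 without their roles, whereas the paper describes STAR and HTSeq for its counts. The annotation behind the FPKM values is not given in the sources used here. No sample column was left out.

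The 10 genes and all lists were chosen with earlier results of these data known. The text names all 10 genes and, of each list, those with the 2 highest and 2 lowest means, those whose libraries span over 2-fold at a mean of at least 1 FPKM, and the nearest listed gene. Values were used without rescaling. Ratios used log2(FPKM + 1), a pseudocount of 1 that understates differences of low genes, with a two-sided exact sign-flip permutation over libraries.

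Depth was estimated from 7077 genes with a single GENCODE M21 transcript of 800 to 4000 bases, as the step at which FPKM times length, less 150 to 160 bases, gave whole fragments. Between 74.0% and 79.1% of low values then lay within 0.15 of a whole number, so fragments per gene are estimates, for the main transcript of each gene. The table keeps no counts, and no count model was fitted. The sign-flip test and the depth estimate were tried on simulated data. Positions, overlaps and coding runs are from GENCODE M21 (GRCm38). Python 3.11.15, pandas 2.3.3, numpy 2.4.6, scipy 1.17.1 and matplotlib 3.10.9 were used. Alternatives were other scalings, thresholds, pseudocounts and folds, and leaving out each library. 1 marker gene is not reported here.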

Additional observations from a re-analysis of the deposited data

How the results depend on the processing

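With 3 libraries of 1 condition no test could reach significance. The *Epas1* to *Hif1a*, *Egln1* to *Egln2* and *Egln2* to *Egln3* log2 ratios kept their direction under every scaling, pseudocount and left-out library tried, at 4.796 to 5.07, -0.86 to -0.69 and 2.48 to 5.42. Rescaling every library to the same sum, as in TPM, multiplied S38, S44 and S52 by 0.867, 0.624 and 0.705 and moved 6 of the 10 levels by more than their SD. The number of the 10 genes over 2-fold apart, 0 as reported, was 1 with that rescaling and with a fold of 1.5 (*Hif1an* in both), and 1 with a threshold of 0.1 FPKM and with no filter (*Egln3* in both). Of the 10, 8 were detected at 0.1 FPKM, 7 at 5 FPKM and 5 at 10 FPKM. Partners detected numbered 18 at 10 FPKM, against 28. Partners over 2-fold apart, 2 as reported, numbered 5 when rescaled to a sum, 4 at a common upper quartile, 4 by median ratio, 5 at 0.1 FPKM, 1 at 5 FPKM, 1 at 10 FPKM, 1 with the threshold met in every library, 11 at a fold of 1.5 and 0 to 1 with a library left out. Targets over 2-fold apart, 6 as reported, numbered 10 when rescaled to a sum, 18 at a fold of 1.5 and 0 to 5 with a library left out, the 0 being without S52. Changed thresholds and fewer libraries alter these counts by construction; the cause under rescaling was not tested. No paired analysis was possible because the series holds 1 group. Depth limits statements on *Egln3*, *Hif3a* and *Arnt2*.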
